A study of Mus musculus with 6 samples.

Results

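The 36 genes described here code for the steps that bring glucose into the heart muscle cell and use it, from glucose uptake through glycolysis, glycogen storage and lactate exchange to the entry of pyruvate into the mitochondrion. They were picked from the deposited table by gene symbol. All 36 symbols were found among the 21776 genes of the table, and all 36 had a mean of at least 10 normalised reads, the minimum for testing. The comparison was between hearts of mice with and without *Trdn-as*, a nuclear antisense long non-coding RNA of the triadin locus, and asked how the transcriptome of the heart differs when *Trdn-as* is not made. In the *Trdn-as* KO mice a polyA cassette sits in the first exon of *Trdn-as*. It was placed there with Cas9 in embryonic stem cells, and chimeras were backcrossed to C57BL/6. The insertion is constitutive, so every cell carries it and no Cre line drives it, although the GEO design text speaks of deficiency in cardiomyocytes. WT hearts were the controls. There were 3 KO and 3 WT hearts, with a stranded total RNA library from each. The age of these animals is not given in the sources used here. Whole tissue was sequenced, so fewer cells of a type and less RNA per cell cannot be told apart.

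Glycolysis splits glucose into pyruvate in the cytosol and yields ATP without oxygen. Pyruvate is then either reduced to lactate or carried into the mitochondrion, where the pyruvate dehydrogenase complex turns it into acetyl-CoA. Fatty acids are the main fuel of the adult heart, with glucose, lactate and the heart's own glycogen used beside them, and kinases that switch off pyruvate dehydrogenase help to set the balance between these fuels.

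The labels fit the libraries. *Trdn-as* had 1, 0 and 1 normalised reads in the KO hearts and 690, 773 and 688 in the WT hearts, and *Trdn*, which encodes triadin, had 2489, 2381 and 2551 against 1541, 1541 and 1516. The libraries summed to 3.13 to 3.25 M normalised reads, and the reads behind them were estimated at 2.59 to 3.62 M, lowest in WT replicate 1. All 8 ventricular cardiomyocyte markers were present in every heart. Of 10 skeletal muscle markers, *Actn3*, *Atp2a1*, *Myh2*, *Mylpf* and *Pvalb* were at 0 in at least 1 heart, and the 7 that are in the table summed to 19 to 22 reads in KO and 15 to 24 in WT.

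Glucose-use transcripts were slightly less abundant in the KO hearts for most of the genes, and no single gene passed the test. Of the 36 genes, 32 had a lower mean log2 value in KO, which is 88.9%, against 49.4% of all 13753 genes tested. When libraries were scaled to their totals, 30 were lower, against 41.8% of all genes. The median log2 fold change of KO against WT was -0.098, against 0.002 over all genes, and the 36 values ran from -0.228 to 0.050. By limma with Benjamini-Hochberg adjustment over all genes tested, 0 of the 36 had an adjusted p under 0.05, where 4 or 0.0291% of all genes tested did. The smallest adjusted p was 0.851. At an unadjusted p under 0.05 there was 1 gene, *Pfkfb2*, which is 2.78% of the 36 against 5.74% of all genes, or 2.8% of all genes with lower values in KO. With limma-voom in place of this test, the counts were 0 at the adjusted and 0 at the unadjusted threshold. For 2 genes, *Slc2a1* and *Tpi1*, every KO heart was below every WT heart, and 0 genes were separated the other way. These are 5.56% of the 36, while 9.07% of all genes had no overlap between the groups and 4.44% had none with KO below WT. Taken gene by gene, the 95% interval of the fold change stayed within 1.5-fold in either direction for all 36 genes and within 1.25-fold for 31. These intervals are not adjusted for the number of genes, and the estimates moved when a heart was left out.

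**Figure D1:**
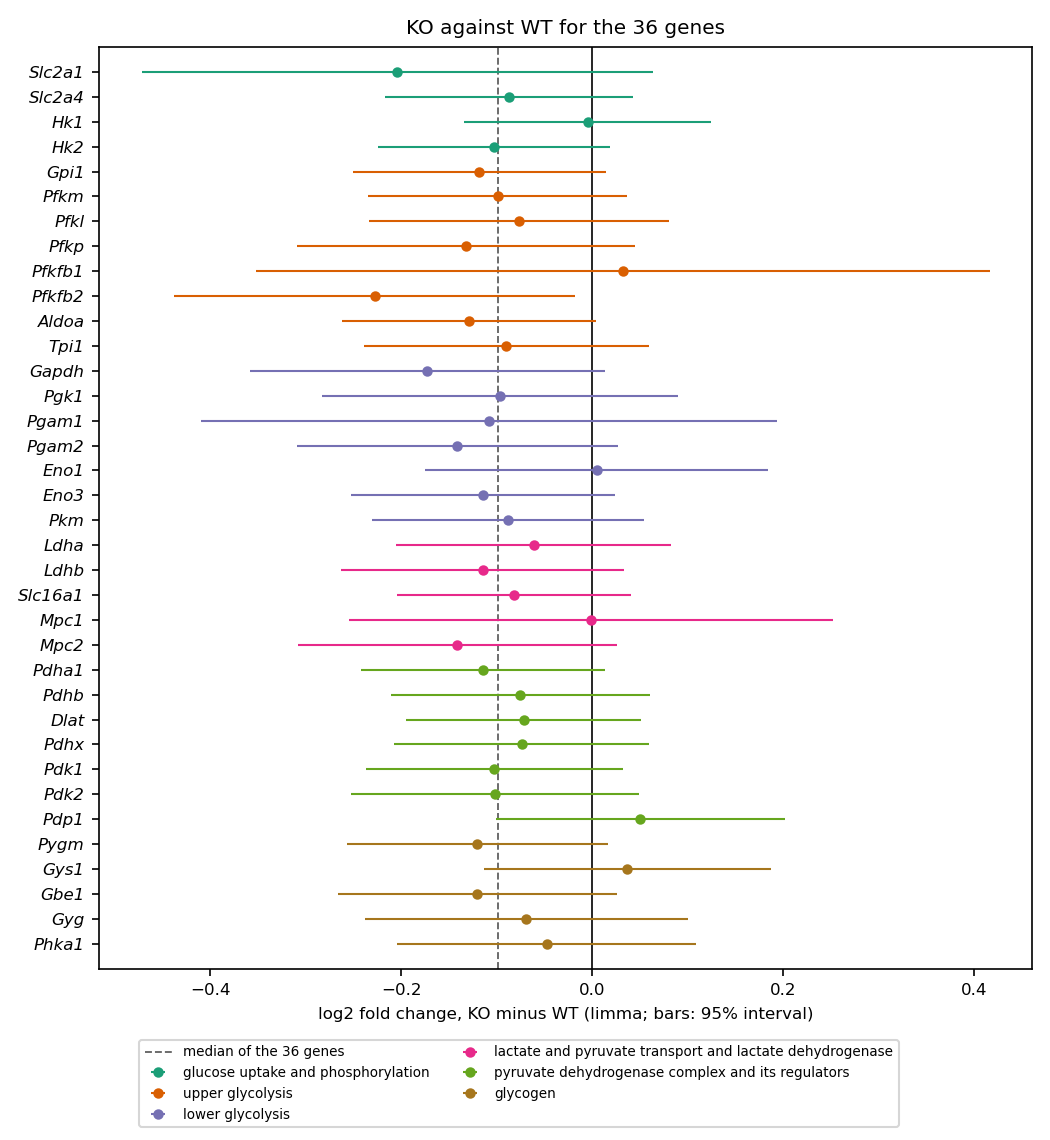
Log2 fold change of KO against WT with its 95% interval from limma for each of the 36 genes, coloured by role, with a dashed line at their median. The points lie left of 0 for 32 genes, and only the interval of Pfkfb2 does not reach 0.

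The size of this difference rested in large part on WT replicate 1. Summed over the 36 genes, the KO hearts had 21126, 20810 and 21093 normalised reads and the WT hearts 23914, 22411 and 20987. The 3 KO hearts were close together, whereas the WT hearts were spread out, with WT replicate 1 highest and WT replicate 3 among the KO hearts. The means were 21010 ± 174 in KO and 22437 ± 1464 in WT (SD, n = 3 each), with an exact two-sided permutation p of 0.3, where 3 against 3 hearts cannot go below 0.1. WT replicate 1 held the highest of the 6 values for 27 of the 36 genes. Without it the median log2 fold change was -0.045 with 31 genes lower (49.9% of all genes were lower), and the count at an unadjusted p under 0.05 was 1, against 4.36% of all genes. That gene was *Pfkp* (unadjusted limma p of 0.0472), whereas *Pfkfb2*, the gene with all hearts in the fit, stood at -0.16 (unadjusted limma p of 0.181). Without WT replicate 3 the median was -0.125 with 33 genes lower (49.7% of all genes were lower). The count at an unadjusted p under 0.05 was then 15, against 8.6% of all genes, and 0 passed the adjusted threshold, the smallest adjusted p being 0.257 for *Pfkfb2*.

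The size of the difference also depended on read density, and the values above carry no correction for it. When each library was corrected for a trend of its values on read density (normalised reads per exonic kilobase), the median of the 36 genes moved from -0.098 to -0.032, with 30 genes lower. All of the 18 genes with the higher levels per kilobase came more than 1.5 times closer to 0 or changed sign, and their median moved from -0.094 to -0.025. Among them *Eno3* moved from -0.11 to -0.0025, *Pdha1* from -0.11 to -0.0062, *Pygm* from -0.12 to -0.014, *Ldhb* from -0.11 to -0.013 and *Pfkm* from -0.10 to -0.0006. Of the 18 genes with the lower levels, 4 moved that far, and their median went from -0.099 to -0.079. *Pfkfb2* and *Slc2a1* stood at -0.24 and -0.22 after the correction. The cardiomyocyte markers, which are abundant too, had a median of -0.040 after it. The trend was fitted over the tested genes, these genes and the markers included. A difference shared by abundant genes is thus removed with it, whatever its source. Whether the trend came from the libraries or from the hearts was not tested.

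The cardiomyocyte markers moved with these genes. All 8 had a lower mean log2 value in KO, with a median of -0.158, and 3 of them (*Myh6*, *Tnnt2* and *Ttn*) had an unadjusted p under 0.05 and 0 an adjusted p under 0.05 by limma. Their sum was 84005, 85741 and 87817 in the KO hearts and 107519, 95828 and 86853 in the WT hearts. The WT hearts thus stood in the same order for the markers and for the glucose genes. Most of that sum was *Ttn*, the giant sarcomere spring, and without it the sums were 10267, 10562 and 10968 against 13475, 11786 and 10331. Per 1000 reads of the 8 markers, the 36 genes had 245 ± 5.69 reads in KO and 233 ± 10.1 in WT (SD, n = 3 each), 1.05 times as many, with an exact permutation p of 0.2. With *Ttn* left out the ratio was 1.04 with an exact permutation p of 0.4. Relative to the markers, the 36 genes had no lower mean in KO. What part the cardiomyocyte content or the RNA per cell of WT replicate 1 has in the result was not tested. Fibroblast and endothelial markers were also highest in WT replicate 1 among the WT hearts, with KO hearts on both sides of the WT median for both. Fibroblast markers summed to 3498 to 3958 in KO and 3700 to 3970 in WT, endothelial markers to 3832 to 4360 and 3797 to 4286, smooth muscle markers to 645 to 735 and 693 to 717, and macrophage and leukocyte markers to 519 to 785 and 630 to 690. Erythroid markers summed to 164 to 304 in KO and 151 to 423 in WT, and 5 of 5 had a lower mean in KO, whereas 5 of 5 endothelial markers had a higher mean log2 value in KO with a median of 0.033. Of the smooth muscle markers 3 of 4 were lower, and *Acta2* did not overlap between the groups (242 to 247 reads in KO and 261 to 279 in WT). Atrial markers summed to 525, 628 and 436 in the KO hearts and 450, 538 and 622 in the WT hearts. Among the WT hearts this order was the reverse of that of the 36 genes. The atrial marker *Bmp10* had 56 reads in WT replicate 3 and 0 to 8 in the other hearts. Adipocyte markers summed to 33, 154 and 37 in KO and 51, 48 and 48 in WT, highest in KO replicate 2. What part these tissues have in the result was not tested. In the lists other than the cardiomyocyte one, 0 tested markers had an unadjusted p under 0.05.

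**Figure D2:**
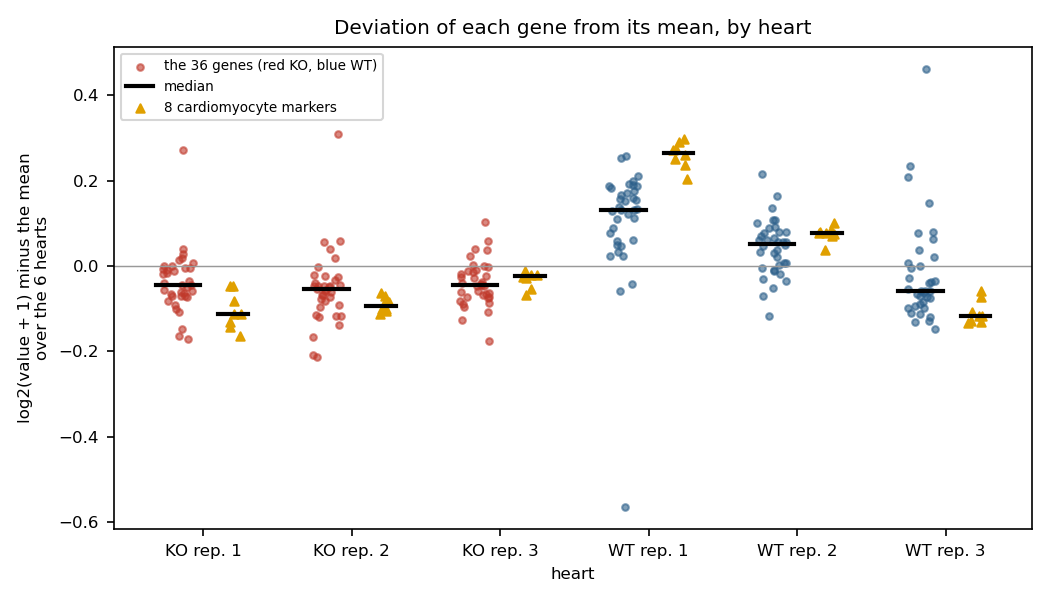
Deviation of log2(value + 1) from the gene's mean over the 6 hearts, for the 36 genes (circles, red KO and blue WT) and the 8 cardiomyocyte markers (triangles), with medians as bars. The medians of the 36 genes were 0.132, 0.052 and -0.059 in WT replicates 1 to 3 and between -0.055 and -0.044 in the KO hearts, and the markers were highest in WT replicate 1 at 0.266.

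The genes were also searched for shared letters near their transcription starts. The E-box CACGTG is read by factors that include the MYC and MondoA families, and ACGTG is the core of the element that hypoxia-inducible factor binds. Both were searched on both strands in RefSeq promoter windows of GRCm38.p6, from 250 bases before to 50 bases after each start, and every CACGTG also holds ACGTG. RefSeq windows were matched for 34 of the 36 genes, with 52 windows among them. CACGTG stood in 6 of these 52 windows (11.5%), against 7.15% of all 32851 windows, and ACGTG in 19 (36.5%) against 19.6%. The matches are a description of these letters and show no binding. The 7 E-box stretches are printed below 5′ to 3′ on the strand of the gene with the E-box in capitals, to show which of the genes carry it and that their flanks differ. The last line is the ACGTG stretch of *Slc2a1*, with those letters in capitals. They lie on GRCm38.p6 at chr1:130715829-130715852 (minus strand, a start inside *Pfkfb2*), chr15:98092444-98092467 (plus, *Pfkm*), chr7:46845650-46845673 and chr7:46845747-46845770 (plus, *Ldha*), chr3:104638455-104638478 (plus, *Slc16a1*), chr11:95041483-95041506 (minus, *Pdk2*), chr3:20155094-20155117 (minus, *Gyg*) and chr4:119108699-119108723 (plus, *Slc2a1*).
Pfkfb2: caagcgcccCACGTGactcgcccc
Pfkm: taagtatgcCACGTGaagtaagta
Ldha, first site: gtcgcagcaCACGTGgagccactc
Ldha, second site: cccagcctaCACGTGggttcccgc
Slc16a1: gcgccgggtCACGTGgcgggaagg
Pdk2: gaggagagcCACGTGtcgaagcgc
Gyg: ctgcgcggcCACGTGacggccgct
Slc2a1: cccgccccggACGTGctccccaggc

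Levels were compared between genes as normalised reads per kilobase of annotated exon. The most abundant of the 36 by this measure was *Eno3*, the muscle enolase, at 510 per kilobase over the 6 hearts, followed by *Pdha1* at 478, *Pygm* at 465, *Pgam2* at 459, *Ldhb* at 423 and *Pfkm* at 400. At the low end were *Slc2a1* at 21.9 and *Pfkp* at 20.7. The muscle forms of their enzymes, *Eno3*, *Pygm*, *Pgam2* and *Pfkm*, were thus among the top 6. *Gapdh*, often used as a reference gene, ranked low at 59.7 per kilobase. The length is that of all annotated exons of all transcripts merged, retained introns included, which for *Gapdh* is 4133 bases in 2 blocks. It is 13401 bases for *Pfkp* and 7344 for *Mpc2*, and the order of the levels depends on this choice of length. Reads that fit several places were discarded by the authors, and 22.6% of the 75-base windows of *Gapdh* transcripts occur without mismatch in transcripts of 122 other genes, of which 114 are pseudogenes. The same share was 52.8% for *Pgk1*, 34.9% for *Pgam1*, 23.0% for *Eno1*, 12.6% for *Ldhb* and 9.72% for *Mpc1*, which lowers the measured levels of these genes to an extent that was not tested. On the same strand, 17.4% of the exonic bases of *Pfkfb2*, 15.3% of those of *Pkm* and 10.2% of those of *Pfkm* also belong to an overlapping gene in GENCODE M21. Those at *Pfkfb2* and *Pfkm*, *Gm29427* and *Gm26513*, are listed in the deposited table, and the authors left out reads that fell on several genes. How much this lowers the values was not tested.

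**Figure D3:**
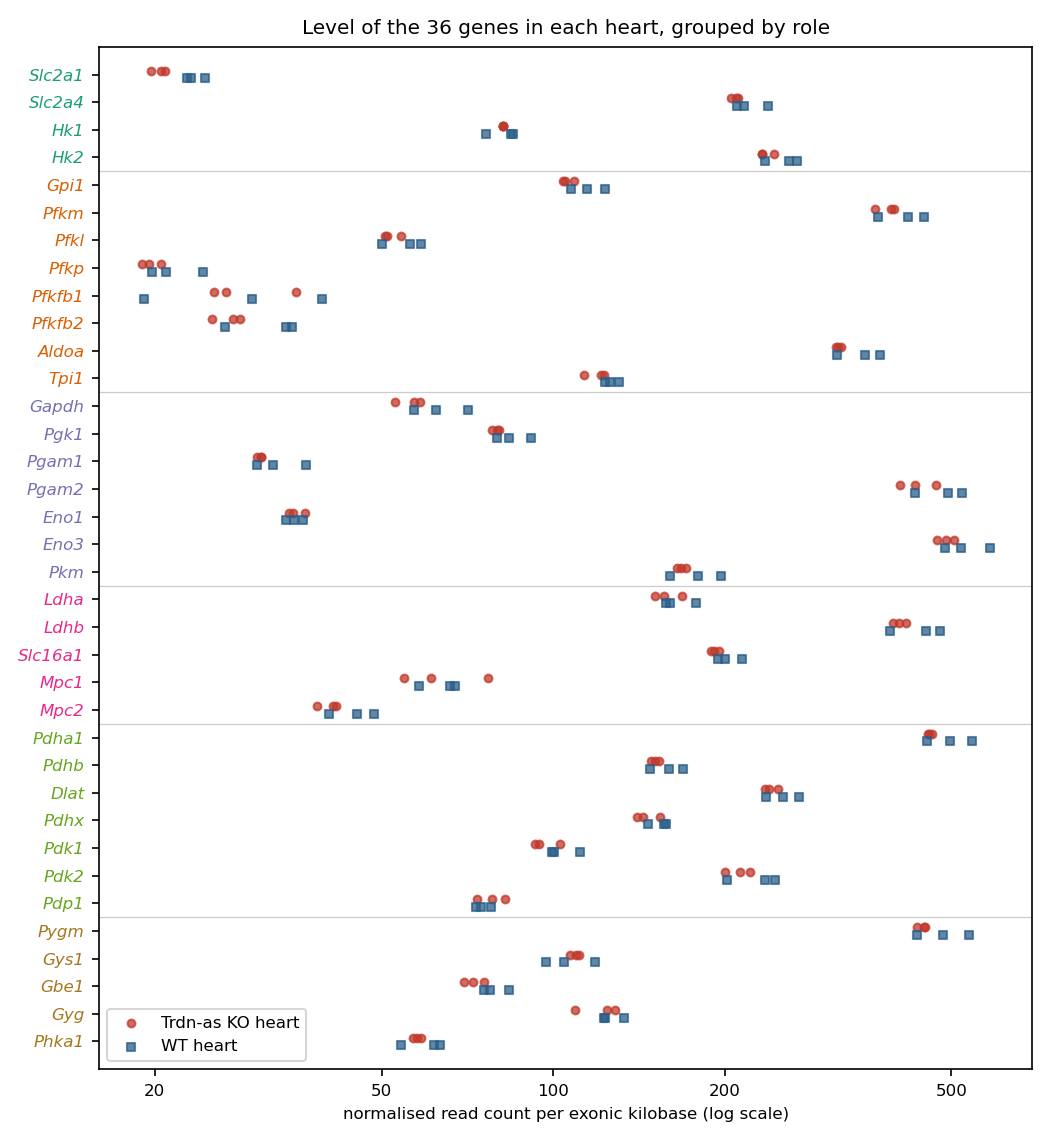
Normalised read count per exonic kilobase on a log axis for each of the 36 genes in each heart, circles KO and squares WT, grouped by role from glucose uptake at the top to glycogen at the bottom. The genes span 20.7 (Pfkp) to 510 (Eno3) on average, and the circles and squares of a gene overlap except for Slc2a1 and Tpi1.

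Glucose uptake and phosphorylation are covered by 4 genes, all with a lower mean log2 value in KO (3 of 4 under total scaling, where *Hk1* turned) and a median log2 fold change of -0.095. *Slc2a1* (chr4:119108711-119137983, plus strand) encodes GLUT1, the basal glucose transporter. It had 69, 73 and 72 normalised reads in the KO hearts and 80, 86 and 81 in the WT hearts. Every KO heart was thus below every WT heart, by few reads. The log2 fold change was -0.20 (SE 0.13, unadjusted limma p of 0.128, adjusted p = 0.892), with a 95% interval from -0.47 to 0.06. The SD between hearts was 2.08 in KO and 3.21 in WT, below the 8.19 and 9.38 that counting alone would give, and limma draws the variance of each gene toward that of genes of like level. Without the trend of the spread on the level, its unadjusted p was 0.0302 and no other member was under 0.05. *Slc2a4* encodes GLUT4, the transporter that insulin brings to the cell surface. It had 713, 734 and 727 reads in KO and 830, 751 and 732 in WT. The groups overlapped, and WT replicate 1 stood highest.

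Hexokinases trap glucose in the cell by phosphorylating it. *Hk2*, the form of insulin-sensitive muscle and the most counted gene of this group, had 1455, 1390 and 1391 reads in KO and 1601, 1546 and 1408 in WT. KO replicate 1 lay above WT replicate 3, and the log2 fold change was -0.10 (SE 0.06, adjusted p = 0.879 by limma). *Hk1*, the form found in most tissues, had 697, 696 and 696 reads in KO and 726, 721 and 651 in WT. The KO hearts lay inside the range of the WT hearts. Its log2 fold change was -0.0044 and turned to 0.02 when libraries were scaled to their totals.

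Upper glycolysis holds 8 genes, of which 7 were lower in KO and 1 higher, with a median of -0.108. *Pfkfb2* (chr1:130689182-130729253, minus strand) encodes the heart form of the bifunctional enzyme that makes and removes the activator of phosphofructokinase. It had 205, 183 and 199 reads in KO and 253, 246 and 193 in WT. WT replicates 1 and 2 stood above all KO hearts and WT replicate 3 among them. The log2 fold change was -0.23 (SE 0.10, unadjusted limma p of 0.0353, adjusted p = 0.851), with a 95% interval from -0.44 to -0.02. With a heart left out it ran from -0.16 without WT replicate 1 to -0.35 without WT replicate 3, and the unadjusted p was no longer under 0.05 without any one of KO replicates 2 and 3 and WT replicates 1 and 2. Its related gene *Pfkfb1* ran from 102 to 142 reads in KO and from 77 to 158 in WT. It had the widest interval of the 36 genes, from -0.35 to 0.42, and was the gene of this group with a higher mean log2 value in KO, at 0.03, which turned to lower without KO replicate 2 or without WT replicate 1. *Tpi1* (chr6:124810586-124814296, minus strand) encodes the triose phosphate isomerase, which interconverts the sugars that aldolase releases. It had 334, 312 and 338 reads in KO and 360, 340 and 347 in WT. The groups did not overlap, yet the highest KO heart lay only 2 reads under the lowest WT heart, and the log2 fold change was -0.09 (SE 0.07, adjusted p = 0.911 by limma).

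Phosphofructokinase commits the sugar to glycolysis and has muscle, liver and platelet forms. *Pfkm*, the muscle form and the most counted gene of upper glycolysis, had 1326, 1227 and 1309 reads in KO and 1498, 1404 and 1244 in WT. *Pfkl*, the liver form, had 339, 361 and 341 in KO and 391, 374 and 335 in WT. *Pfkp*, the platelet form, had 275, 254 and 262 in KO and 265, 280 and 325 in WT. In *Pfkm* and *Pfkl* the highest heart was WT replicate 1 and in *Pfkp* it was WT replicate 3, so the heart that was high for most of the genes was not high for *Pfkp*. The log2 fold changes were -0.10, -0.08 and -0.13 in this order, with adjusted p of 0.893, 0.934 and 0.892 by limma. *Aldoa*, the muscle aldolase, ran from 913 to 932 reads in KO and from 917 to 1089 in WT, with a log2 fold change of -0.13 and an unadjusted p of 0.0568. *Gpi1*, the isomerase between the first phosphorylations, ran from 672 to 701 in KO and from 693 to 795 in WT, with a log2 fold change of -0.12.

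Lower glycolysis, the ATP-yielding stretch, holds 7 genes, 6 lower in KO and 1 higher, with a median of -0.108. *Eno3*, the muscle enolase and the most counted of them, had 821, 852 and 878 reads in KO and 1015, 904 and 849 in WT. WT replicate 3 again lay among the KO hearts, and the log2 fold change was -0.11 (SE 0.07, adjusted p = 0.879 by limma). *Eno1*, the enolase of most other tissues, had 185, 197 and 188 reads in KO and 196, 183 and 189 in WT. The hearts of both groups were intermixed, at a log2 fold change of 0.0051 that turned to -0.005 under the read density correction. *Pgam2*, the muscle phosphoglycerate mutase, had 363, 342 and 394 reads in KO and 438, 414 and 362 in WT. *Pgam1*, its counterpart in most tissues, had 60, 61 and 61 in KO and 64, 60 and 73 in WT. Both overlapped between the groups, at log2 fold changes of -0.14 and -0.11. Of the remaining genes, *Gapdh* ran from 218 to 241 reads in KO and from 236 to 293 in WT, at -0.17 with an unadjusted limma p of 0.0671. *Pgk1*, which forms the first ATP of this stretch, ran from 175 to 180 and from 179 to 205, at -0.10, and *Pkm*, the pyruvate kinase, from 824 to 857 and from 801 to 986, at -0.09.

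Lactate and pyruvate handling holds 5 genes, all with a lower mean log2 value in KO (all but *Mpc1* under total scaling) and a median of -0.082. *Slc16a1*, which encodes the lactate and pyruvate carrier MCT1 of the cell membrane, was the most counted, with 864, 837 and 847 reads in KO and 950, 862 and 887 in WT. Only KO replicate 1 lay above the lowest WT heart, and the log2 fold change was -0.08 (SE 0.06, adjusted p = 0.905 by limma). *Ldhb*, the heart subunit of lactate dehydrogenase, had 636, 619 and 653 reads in KO and 751, 709 and 613 in WT. *Ldha*, the muscle subunit, had 500, 518 and 558 in KO and 590, 532 and 523 in WT. For *Ldhb* the lowest heart was WT replicate 3, and for *Ldha* it was KO replicate 1. The log2 fold changes were -0.11 and -0.06. *Mpc2* and *Mpc1* encode the partners of the mitochondrial pyruvate carrier. *Mpc2* ran from 283 to 306 reads in KO and from 297 to 356 in WT, at -0.14, and *Mpc1* from 114 to 160 and from 121 to 140, at -0.0008 with a change of direction to 0.02 under total scaling.

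The pyruvate dehydrogenase complex and its regulators hold 7 genes, 6 lower in KO and 1 higher, with a median of -0.075. *Pdha1*, the catalytic subunit that the kinases phosphorylate, was the most counted of all 36 genes, with 1708, 1699 and 1728 reads in KO and 2027, 1856 and 1691 in WT. The KO hearts lay close to each other, and WT replicate 3 was the lowest of all 6 hearts. The log2 fold change was -0.11 (SE 0.06, unadjusted limma p of 0.0763, adjusted p = 0.86). The other subunits of the complex ran from 573 to 593 in KO and 572 to 654 in WT for *Pdhb*, from 1150 to 1211 and 1157 to 1319 for *Dlat*, and from 552 to 605 and 576 to 621 for *Pdhx*. Their log2 fold changes of -0.08, -0.07 and -0.07 were of the same size. The kinases *Pdk1* and *Pdk2*, which switch the complex off, had 722 to 800 reads in KO and 774 to 868 in WT, and 634 to 702 against 638 to 777, both at -0.10. *Pdp1*, the phosphatase that switches it on again, ran from 332 to 371 in KO and 330 to 351 in WT, at 0.05 with a 95% interval from -0.10 to 0.20. It was the member with the highest log2 fold change.

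Glycogen is covered by 5 genes, 4 lower in KO and 1 higher, with a median of -0.069. *Pygm*, the muscle phosphorylase that releases glucose units from glycogen, was the most counted, with 1400, 1442 and 1449 reads in KO and 1727, 1556 and 1398 in WT. WT replicate 1 was far above the rest, WT replicate 3 was the lowest heart, and the log2 fold change was -0.12 (SE 0.07, unadjusted limma p of 0.0813, adjusted p = 0.861). *Gys1*, the muscle glycogen synthase, ran from 513 to 531 in KO and from 466 to 567 in WT, at 0.04, and was lower in KO at -0.03 without WT replicate 3. *Gbe1*, the branching enzyme, ran from 373 to 405 and from 405 to 448, the highest KO heart level with the lowest WT heart, at -0.12. *Gyg*, the protein primer of the granule, ran from 256 to 301 and from 288 to 312, at -0.07. *Phka1*, a regulatory subunit of the kinase that activates phosphorylase, ran from 355 to 367 and from 338 to 397, at -0.05. None of the 5 separated the hearts by genotype.

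The use of isoforms was compared within each heart, which removes any difference between libraries that touches all genes alike, but not one that depends on read density. In each of 6 families the share of the leading isoform was taken from the reads per exonic kilobase, and KO and WT were compared by an exact two-sided permutation test over 3 and 3 hearts, with a smallest possible p of 0.1. *Hk2* took 74.9%, 74.1% and 74.1% of the hexokinase pair in the KO hearts and 75.9%, 75.4% and 75.6% in the WT hearts. The shares did not overlap, with means of 74.3 ± 0.48% and 75.6 ± 0.26% (SD, n = 3) and a difference of -1.28 percentage points (exact permutation p = 0.1, Benjamini-Hochberg adjusted over 6 families p = 0.6). In the other 5 families the shares overlapped. *Slc2a4* took 91.1 ± 0.12% of the transporter pair in KO and 90.4 ± 0.78% in WT, *Eno3* 93.3 ± 0.24% and 93.8 ± 0.43% of the enolases, and *Ldhb* 71.9 ± 0.87% and 72.6 ± 1.3% of lactate dehydrogenase. *Pfkm* took 84.3% of phosphofructokinase in both groups, and *Pgam2* 93.4 ± 0.44% and 93.5 ± 1.19% of the mutases. The muscle or heart form thus led each family in all 6 hearts. How large the shares were depended on the division by length. Without it *Pfkm* took 67.8% in KO and 67.7% in WT, and *Ldhb* 54.8% and 55.7%, while *Slc2a4* took 91.0% and 90.3%. Reads discarded for fitting several places also lower the values of *Pgam1* and *Eno1*, to an extent that was not tested. With values corrected for read density, an alternative chosen after seeing the data, the difference for *Hk2* was -0.557 points with overlapping hearts (exact permutation p = 0.3). For *Eno3* it was 0.0108, and for *Ldhb* it was -0.0289 in place of -0.737. *Slc2a4* and *Pfkm* then differed without overlap, by 1.17 and 0.905 points (exact permutation p = 0.1 each), so which family separated the hearts changed with this correction.

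**Figure D4:**
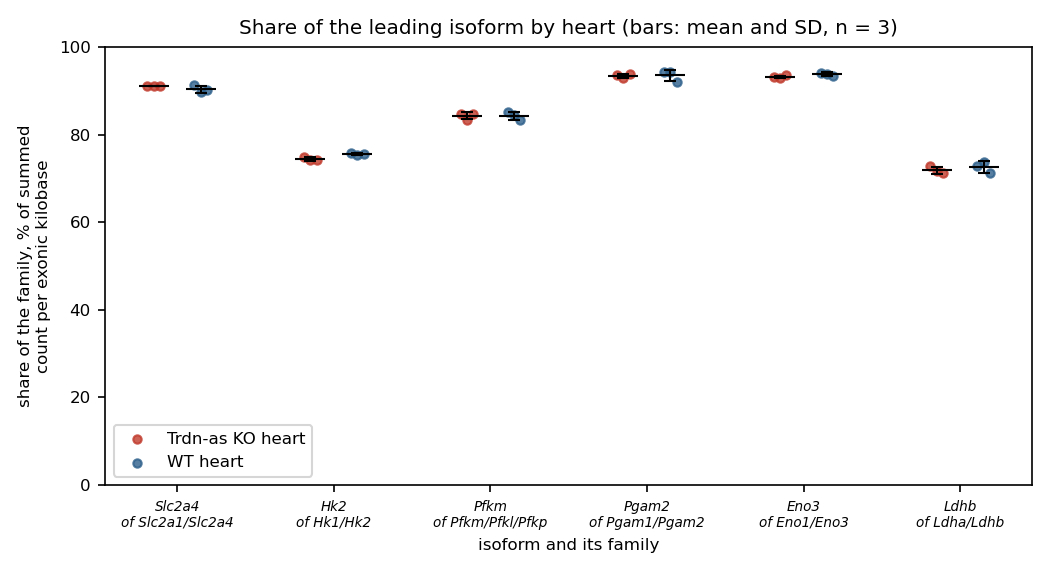
Share of the leading isoform in its family, in percent of the summed reads per exonic kilobase, for each heart (red KO, blue WT), with bars for mean and SD. Each leading isoform holds between 71.2% and 94.2% in every heart, and in these values, which carry no correction for read density, only the hexokinase shares of the KO and WT hearts do not overlap.

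The rest of the pathway was read from 7 lists with 119 genes, of which 110 were in the table and 102 were tested. By limma 0 of the 102 had an adjusted p under 0.05, against 0.0291% of all genes, and 5 an unadjusted p under 0.05, which is 4.9% against 5.74%. Lower values in KO were found for 60 and higher for 42, with a median of -0.031. Under total scaling, where the median of all genes was 0.025 in place of 0.002, 55 of the 102 were lower. By list, 6 of 9 tested further glycolysis enzymes were lower with a median of -0.130, 3 of 8 further transporters of glucose and lactate with 0.067, 3 of 6 further pyruvate dehydrogenase genes with 0.007, and 15 of 22 further glycogen genes with -0.040. In the branches that leave glycolysis, among them the pentose phosphate and hexosamine pathways, 7 of 20 were lower with a median of 0.015. Of the genes that control glucose use, 19 of 30 were lower with -0.048. In the malate-aspartate shuttle, which carries the reducing power of glycolysis into the mitochondrion, 7 of 7 were lower with -0.114 (6 of 7 under total scaling), 0 of them at an unadjusted p under 0.05. For its genes *Mdh1* and *Got1* the difference shrank under the read density correction and without WT replicate 1, as given below.

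The genes of these lists with the smallest p-values, *Arrdc4* and *Pdk4*, had higher values in KO, though neither passed the adjusted threshold. *Arrdc4*, an arrestin-like protein that lowers glucose uptake and a target of MondoA, had 126, 165 and 180 reads in KO and 106, 118 and 85 in WT. Every KO heart was above every WT heart, with a log2 fold change of 0.60 (SE 0.14, unadjusted limma p of 0.000312, adjusted p = 0.36). With a heart left out it ran from 0.47 without WT replicate 3 to 0.75 without KO replicate 1. The adjusted p was 0.015 without KO replicate 1, where 32 of all genes passed in place of 4, and 0.338 to 0.999 without each of the other hearts. *Txnip*, the related MondoA target that also lowers glucose uptake, is named here after its values were seen. It had 1242, 1435 and 1495 reads in KO and 1201, 1333 and 1280 in WT, overlapping through KO replicate 1, at 0.13 (SE 0.07, adjusted p = 0.857 by limma). *Pdk4*, the fasting-induced kinase that switches off pyruvate dehydrogenase and the most counted gene of its list, had 1682, 1885 and 1998 reads in KO and 1337, 1574 and 1742 in WT. Only KO replicate 1 lay below the highest WT heart, and the log2 fold change was 0.26 (SE 0.08, unadjusted limma p of 0.00339, adjusted p = 0.744). *Pdk4* was lowest in WT replicate 1, and without that heart its log2 fold change was 0.16.

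The other 3 genes at an unadjusted p under 0.05 were lower in KO and are also named after their values were seen. *Irs2*, an adaptor of the insulin receptor, had 143, 112 and 94 reads in KO and 148, 160 and 141 in WT, at -0.38 (adjusted p = 0.772 by limma). *Ppp1r3c*, which targets a phosphatase to glycogen, had 339, 258 and 295 in KO and 465, 385 and 288 in WT, at -0.33. *Pfkfb4*, at 13 to 22 reads in KO and 22 to 28 in WT, was near the minimum for testing, at -0.55. All 3 overlapped between the groups, and KO replicate 1 was the highest KO heart in *Irs2* and *Ppp1r3c*.

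Of the 102 genes, 7 had no overlap between KO and WT, which is 6.86% against 9.07% of all genes. Those with lower values in KO were *Gsk3a*, *Gsk3b*, *Ppp1r3a* and *Slc25a11*, at log2 fold changes of -0.15, -0.11, -0.06 and -0.13, and those with higher values *Arrdc4*, *Emb* and *Sord*, at 0.60, 0.76 and 0.14, with *Emb* at only 4 to 19 reads a heart. Except for *Arrdc4* and *Ppp1r3a*, they are named after their values were seen. Among the most counted genes of the lists, the log2 fold changes other than that of *Pdk4* were between -0.18 and 0.09. *Ppp1r3a*, the muscle subunit that ties a phosphatase to glycogen, had 1974, 1944 and 1932 reads in KO and 2036, 1984 and 2096 in WT. Every KO heart was below every WT heart, at a log2 fold change of -0.06 (SE 0.05, adjusted p = 0.913 by limma). Its log2 fold change turned to 0.016 under the read density correction. *Pygb*, the brain form of phosphorylase, was at -0.09, *Bsg*, the chaperone of the lactate carriers, at -0.08, and *Slc16a7*, which encodes the carrier MCT2, at 0.09. *Dld*, the subunit that pyruvate dehydrogenase shares with other complexes, was at -0.06. *Mdh1* and *Got1* of the malate-aspartate shuttle were at -0.11 and -0.10. Under the read density correction they were at -0.029 and -0.005, and without WT replicate 1 at -0.038 and -0.05. *Ogt* and *Mgea5*, which add and remove the sugar tag made by the hexosamine pathway, were at -0.09 and -0.07. *Tigar* and *Pfkfb3*, which act on the activator of phosphofructokinase, were at -0.18 and 0.03, and *Insr*, the insulin receptor, and *Mef2a*, a transcription factor of *Slc2a4*, at -0.08 and 0.03. The adjusted p of these genes ran from 0.851 to 0.991 by limma.

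**Figure D5:**
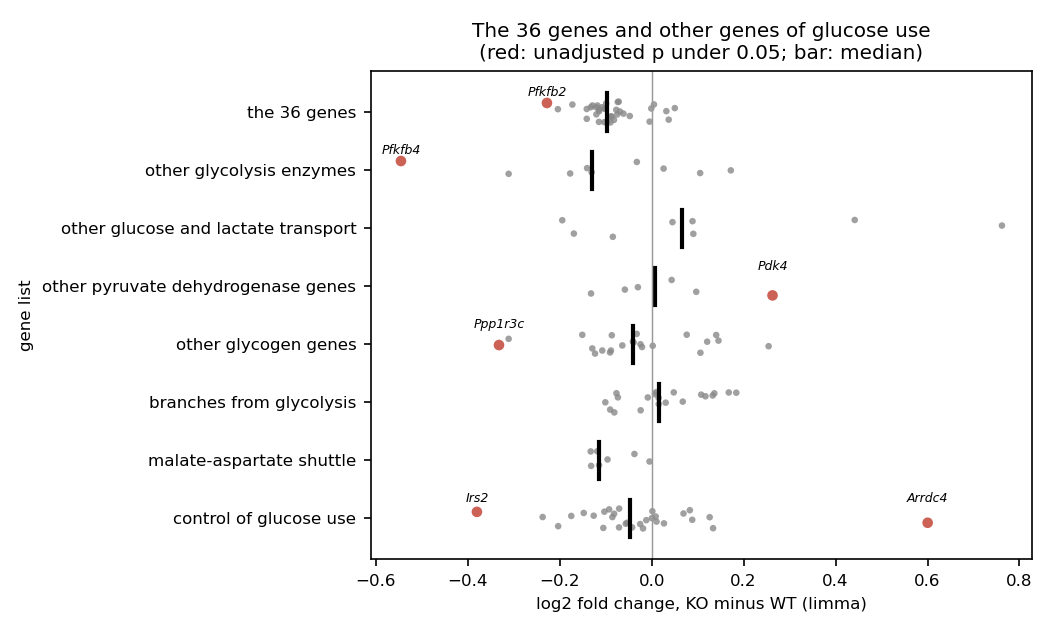
Log2 fold change of KO against WT from limma for the 36 genes and for the tested genes of 7 further lists, with medians as bars and genes at an unadjusted p under 0.05 in red and named. The 36 genes lie close together around -0.098, and of the genes in red, Arrdc4 at 0.60 and Pdk4 at 0.26 stand to the right of their lists and Pfkfb4 at -0.55, Irs2 at -0.38 and Ppp1r3c at -0.33 to the left, with Emb the rightmost grey point at 0.76.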

How the data were processed

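Total RNA of 3 *Trdn-as* KO and 3 WT mouse hearts was sequenced by the authors in 75-base single-end reads (SMARTer Stranded Total RNA kit, NextSeq500). The authors trimmed reads with Trimmomatic 0.39, aligned them with STAR 2.6.1d to mm10 (GRCm38), removed PCR duplicates with Picard 2.21.1 as well as multi-mapping, ribosomal and mitochondrial reads, and counted exonic reads by strand with featureCounts 1.6.5. Reads that overlapped several genes were left out. Each deposited value is a score that the authors made by dividing a gene's count by the library's DESeq2 1.18.1 size factor and rounding to a whole number. These scores are called normalised reads in the text. Raw counts were not used here.

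KO was compared with WT by limma 3.58.1 (R 4.3.3) with a mean-variance trend on log2(value + 1), two-sided, for the 13753 genes with a mean of at least 10, with Benjamini-Hochberg adjustment over all of them. Fold changes are on that log2 scale, which understates changes of low genes. The fit was tested on simulated data, in 3 sets. Each set had 200 changed genes, split over changes of 1.25-fold, 1.5-fold and 2-fold. It recovered 14.9% to 25.4% of changes of 1.25-fold and 74.6% to 77.6% of changes of 1.5-fold. At most 7.91% of its calls in these sets were false. In the hearts, the SD of the 36 genes had a median of 0.73 times that of counting alone in KO and 1.74 times in WT. Whether the rates from the sets hold for the hearts was not tested. Exact permutation tests over hearts used SciPy 1.17.1. Size factors, and from them the read numbers, were estimated from the pattern of whole numbers in values under 1000. Exonic lengths came from GENCODE M21, which holds 99.8% of the gene identifiers, with the same coordinates for 75.2% of genes and for 25 of the 36. Gene positions are those of the deposited table on GRCm38. Promoter sequences are from RefSeq.

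The 36 genes and all lists were chosen with earlier results of these data known, and 1 further gene of the lists is not reported here. Values in every heart were given for the most counted gene of each role, for genes at an unadjusted p under 0.05, for genes whose groups do not overlap and for the isoform families. Of the other pathway genes, those at an unadjusted p under 0.05 whose groups do not overlap were named, and up to 2 per list with the highest mean. Alternatives were another pseudocount (0.1), filters on low values, scalings, limma-voom, no trend, a read density correction (per library, a loess of the deviation from the gene mean on log2 level per exonic kilobase), a threshold of 0.01, a replicate block and leaving out each heart. The isoform shares were also computed on lengths without windows shared with other genes and on values corrected for read density, and the ratio to the markers without each heart, all chosen after seeing the data.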

Additional observations from a re-analysis of the deposited data

How the results depend on the processing

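The count of the 36 genes past an adjusted p of 0.05 was 0 under each of the 15 alternatives, and 30 to 33 genes had a lower value in KO. Their count at an unadjusted p under 0.05 was 0 under total scaling and 0 with limma-voom, and ran from 0 to 15 when a heart was left out (15 without WT replicate 3). Of all genes, 2 passed with at least 10 in every sample, 1 without the trend and 2 at an adjusted p of 0.01, and 2 to 32 when a heart was left out (32 without KO replicate 1). Of the other pathway genes 0 to 1 passed when a heart was left out, 1 (*Arrdc4*) without KO replicate 1. Deviations of hearts with the same replicate number correlated at 0.048, -0.068 and -0.028. The labels do not say whether these numbers pair the hearts. With the number as a replicate block, 4 of all genes and 0 of the 36 passed, the median was -0.098 and *Pdk4* had an adjusted p of 0.182.

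Some genes changed direction, among them genes with values near the median of the 36. *Hk1* was at 0.019 under total scaling, 0.019 with limma-voom and 0.012 under the density correction, and *Mpc1* at 0.022, 0.023 and 0.004. Under the density correction *Eno1* was at -0.005, *Dlat* at 0.0, *Bsg* at 0.019, *Dld* at 0.019 and *Ppp1r3a* at 0.016. With a heart left out, *Hk1* ran from -0.055 to 0.023, *Pfkfb1* from -0.243 to 0.271, *Eno1* from -0.021 to 0.03, *Mpc1* from -0.137 to 0.106, *Gys1* from -0.027 to 0.114, *Gyg* from -0.115 to 0.002, *Pfkfb3* from -0.124 to 0.135 and *Mef2a* from -0.036 to 0.085. The *Pfkm* share differed by 0.107 percentage points without division by length, by 0.905 under the density correction and by -0.524 to 0.417 with a heart left out. The *Pgam2* share differed by 0.384 under the density correction and by -0.768 to 0.275 with a heart left out, and the *Eno3* share by 0.0108 under the density correction. With a heart left out the *Hk2* share differed by -1.56 to -1.14, the *Ldhb* share by -1.44 to -0.161, the *Eno3* share by -0.731 to -0.312 and the *Slc2a4* share by 0.414 (without WT replicate 2) to 1.15 (without WT replicate 1). The causes were not tested. At an estimated 2.59 to 3.62 M reads a library and 3 hearts a group, the standard errors of the 36 log2 fold changes were 0.0581 to 0.184, so changes of the size of their median were not detectable gene by gene.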
